A study of Homo sapiens with 4 samples.

Results

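The 10 genes described here are SCN3A, SCNN1G, COL24A1, CRYBB1, MAL2, ODF4, FBLL1, TMEM140, GDPD1 and AASS. They were grouped as better known from nerve, eye, epithelium, connective tissue matrix or testis than from plasma cells. That label is loose for FBLL1, TMEM140, GDPD1 and AASS, whose descriptions below name no such tissue. All 10 were chosen by their log2 differences between the treated and control arrays described below, so those differences are a description and support no test. They were read by 17 of the 54675 probe sets on the array and make up 10 of the 19775 genes that had a probe set. The arrays held RNA of MM.1S, a cell line from a human multiple myeloma (a cancer of plasma cells). The groups were MM.1S with the vehicle DMSO (the control, for which no culture time was given) and MM.1S with 250 nM MLN4924 for 8, 16 or 24 h. MLN4924 blocks the NEDD8-activating enzyme, which readies the small protein NEDD8 to be joined to cullins, a step that switches on the cullin-RING ubiquitin ligases. Each of the 4 groups had 1 array of 1 line, so no test was possible and every difference below is between single arrays. In RNA from whole cultures, a change in the number of expressing cells and a change in RNA per cell cannot be told apart.

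The 10 genes have no pathway in common. SCN3A encodes a voltage-gated sodium channel of neurons, and SCNN1G a subunit of the epithelial sodium channel, which takes up sodium in kidney, lung and colon. COL24A1 encodes a fibrillar collagen, CRYBB1 a beta crystallin of the eye lens, and MAL2 a membrane protein that carries cargo to the apical face of epithelial cells. ODF4 belongs to the outer dense fibres of the sperm tail, and FBLL1 is a relative of fibrillarin, the methyltransferase that modifies ribosomal RNA. GDPD1 is a phosphodiesterase of lysophospholipids, AASS the enzyme of the first steps of lysine breakdown, and TMEM140 a membrane protein of little-known function. Genes bound to other tissues are often silent in a blood cell line, so whether their probe sets rise above the background of the array is the first question to ask of them.

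Array background was read from 107 probe sets of 82 olfactory receptor genes, which encode smell receptors and are rarely transcribed outside the nose. In the order control, 8 h, 16 h and 24 h, the order of every run of 4 intensities below, their median deposited intensity was 49.2, 47.8, 48.4 and 49.2 and their 95th percentile 116, 115, 119 and 123. That percentile is called background below. Of all 54675 probe sets, 42.4%, 43.5%, 42.2% and 41.3% were above it on the 4 arrays in that order. Being within background was thus the more common state, and the counts below of list genes never above it are to be read beside these shares. Of the 107, 0 (0%) differed at least 2-fold from the control at any time, after values under 48.4 were raised to 48.4. That floor lies near their median, so the count says little on how far values within background vary. On the control array, 7 of the 10 genes had a probe set above background (6 with the 99th percentile of the same probe sets as the limit), and on each treated array 10 of 10 did. These counts take any probe set of a gene, and at 8 h AASS was counted through its second probe set, 210852_s_at, alone. The shares among 12446 genes that counted as measured (a geometric mean intensity above the median of all probe sets, 93.9) were 88.2% on the control array and 90.6%, 89.2% and 87.1% on the treated ones. Those shares take only the brightest probe set of each gene. CRYBB1, MAL2 and SCNN1G stood at the 95.2, 90.2 and 90.2 percentile of all probe sets on the control array. A label of foreign genes thus goes against the control array for CRYBB1 and MAL2, as far as these probe sets read them. For SCNN1G this rests on 241436_at alone, since its other probe set, 207295_at, was within background. COL24A1, ODF4 and FBLL1 were within background on the control array.

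All 10 genes counted as measured, and 10 of 10 differed at least 2-fold from the control at 1 or more times, which the choice of genes fixes. At 8 h, 3 were at least 2-fold higher, beside 0.129% of all measured genes, and 2 at least 2-fold lower, beside 0.121%. At 16 h, 6 were higher, beside 0.386%, and 2 lower, beside 0.289%. At 24 h, 6 were higher, beside 0.514%, and 2 lower, beside 0.193%. The 3 genes that were higher at 8 h, COL24A1, ODF4 and FBLL1, had measured values at least 2-fold above the control's at all 3 times, as had 10 genes in all (0.0803%), while 2 genes in all (0.0161%) and none of the 10 described here were at least 2-fold lower throughout. The control values of COL24A1, ODF4 and FBLL1 were within background, so their folds over background are smaller, from at least 1.73-fold (ODF4 at 24 h) to at least 3.23-fold (COL24A1 at 24 h). The counts also depend on how a gene is read: with the median over its probe sets, 1, 2 and 2 of the 10 were at least 2-fold higher at 8, 16 and 24 h and 0 lower at 8 h, and with log2(value + 32), 0 were higher and 1 lower at 8 h. With only genes above the 75th percentile of mean intensity kept, 0 were higher and 1 lower at 8 h, and 2 were higher at 16 h and 2 at 24 h. A measure of technical spread was that between different probe sets of the same gene, with a pooled SD of 0.16, 0.19 and 0.18 (log2) at 8, 16 and 24 h over 5719 genes. It leaves out the spread between cultures, which was not measured.

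**Figure D1:**
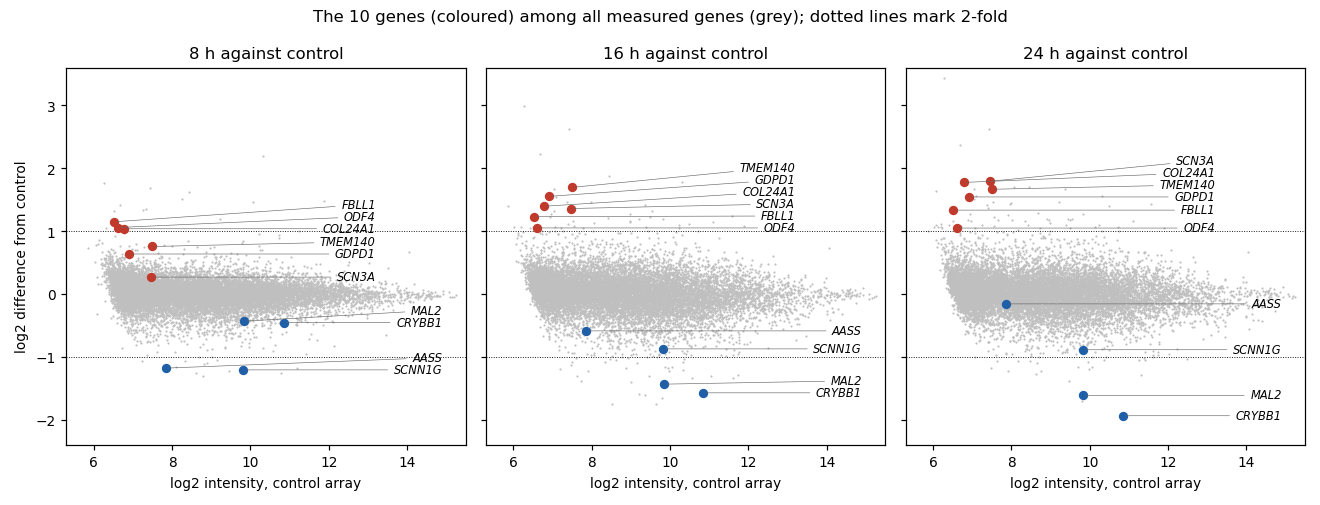
Log2 difference of each measured gene from the control (vertical axis) against its log2 intensity on the control array (horizontal axis) at 8, 16 and 24 h, 1 array each. The 6 genes in red and the 4 in blue are the genes described here, grey points are all other measured genes, and dotted lines mark 2-fold; CRYBB1 is the lowest point at 24 h, at -1.94, and AASS is at -0.16 there.

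SCN3A, the neuronal sodium channel, was higher late in the course. It read 176, 212, 452 and 609.8, above background on each array. The control and 8 h arrays were close and the 16 and 24 h arrays lay well above both. The fold over the control was 1.20, 2.56 and 3.46 (log2 0.27, 1.36 and 1.79), and at 24 h only 3 of the measured genes had a larger positive difference, which ranks SCN3A at 4. A second probe set of SCN3A, 232512_at, read 75.5, 69.9, 72.9 and 78.3 and stayed within background on each array. The one that carried the difference, 210432_s_at, has a suffix that marks probes shared by several transcripts, and the probes' positions were not used here.

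No other voltage-gated sodium channel differed by 2-fold. Of the 14 listed genes, 12 had a probe set, 9 of these were never above background, and 3 besides SCN3A were measured, with medians of 0.18, 0.20 and 0.24 (log2) at the 3 times against 0.0071, 0.026 and 0.016 over all measured genes. SCN9A, a channel of pain-sensing neurons, read 277, 262, 310.1 and 356, and SCN4A, the channel of skeletal muscle, 143, 163, 165 and 145. The SCN2A gene, the neighbour of SCN3A in the same gene cluster, read 70.8, 70.0, 57.5 and 64.6 and was within background.

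Of the 10 neuron markers listed, GAD1, NEFL, NEFM, RBFOX3, SNAP25 and STMN2 were never above background, and 3 were above it on all 4 arrays. MAP2, a microtubule protein of dendrites, was among these 3 and read 188 on the control array and 312, 400 and 438 at 8, 16 and 24 h. Its log2 differences were 0.73, 1.09 and 1.22, so it passed 2-fold at 16 and 24 h, and its second probe set, within background throughout, stood at 0.57, 0.83 and 0.81. SYT1, a calcium sensor of synaptic vesicles, read 256, 197, 359 and 409.6, and the direction at 8 h was opposite to that at 16 and 24 h in both of its probe sets. SLC17A7, a glutamate transporter, read 123, 158, 147 and 158. The summed intensity of the 10 markers was 1064 on the control array and 1212, 1481 and 1556 on the treated arrays. The part of these markers in the SCN3A difference was not tested.

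COL24A1, the fibrillar collagen, was within background on the control array and above it on each treated array. Its single probe set read 109.8, 225, 288 and 375. Each treated array was above the one before it in time, and the control was the lowest. With background as the lowest level the control could be given, the gene was at least 1.94-fold higher at 8 h, at least 2.48-fold at 16 h and at least 3.23-fold at 24 h, and the measured log2 differences were 1.04, 1.39 and 1.77.

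Of the other measured fibrillar collagens, none passed 2-fold. All 11 had a probe set and 6 were never above background, among them COL3A1 and COL1A2 of skin and tendon. The 4 measured genes besides COL24A1 had medians of 0.033, 0.049 and 0.00028 (log2). COL5A1, a regulator of fibril width, read 97.0, 120, 128 and 123, and COL27A1, the closest in kind to COL24A1, read 134, 135, 128 and 133. Of 10 markers of fibroblasts and matrix, 8 were never above background, among them DCN, LUM, PDGFRB and POSTN, and COL1A1 was above it on all 4 arrays, at 218, 206, 244 and 218. The summed intensity of these 10 lay between 856 and 927. FBN1, a microfibril protein in that list, stood at 0.19, 0.55 and 0.68 (log2), from a control value of 78.1 within background.

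TMEM140 and GDPD1 followed nearly the same course. TMEM140 read 180.5, 304, 584 and 572, above background throughout. It was 1.69-fold higher at 8 h, 3.24-fold at 16 h and 3.17-fold at 24 h, so the 8 h array lay between the control and a plateau formed by the later arrays. GDPD1, through the probe set 238681_at, read 120.2, 187, 352 and 350, with the control only just above background. It was 1.55-fold, 2.93-fold and 2.91-fold higher. The distance between the courses of TMEM140 and GDPD1, over the 3 log2 differences, was 0.22, the smallest between any pair of the 10 genes.

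The other probe sets of GDPD1 differed by less than 2-fold. The probe set 1560227_at, above background on each array, read 146, 145, 189 and 177 (log2 -0.010, 0.37 and 0.28). The probe set 1555606_a_at, within background on each array, read 48.3, 62.2, 85.9 and 79.5 (log2 0.36, 0.83 and 0.71). The size of the GDPD1 difference therefore rested on 1 of 3 probe sets, and the median over them was 0.27, 0.65 and 0.56 at the 3 times. Of the 7 phosphodiesterases of the family with a probe set, 7 were measured, and none besides GDPD1 passed 2-fold (medians 0.12, 0.17 and 0.23). GDE1, a membrane enzyme of the same family, read 1223, 1341, 1637 and 1606, and GDPD2 read 218, 278, 265 and 277.

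The promoters of TMEM140 and GDPD1 are shown because the courses of these genes were nearly the same. Each sequence is the 250 bases before the RefSeq start of the gene on GRCh38.p14, written 5' to 3' on the strand of the gene. Capitals mark matches on either strand to the motifs searched, which are the interferon-stimulated response element in TMEM140 and a loose NF-kB pattern (3 G, any 5 bases, then CC) in GDPD1.
TMEM140, chr7:135147822-135148071, plus strand: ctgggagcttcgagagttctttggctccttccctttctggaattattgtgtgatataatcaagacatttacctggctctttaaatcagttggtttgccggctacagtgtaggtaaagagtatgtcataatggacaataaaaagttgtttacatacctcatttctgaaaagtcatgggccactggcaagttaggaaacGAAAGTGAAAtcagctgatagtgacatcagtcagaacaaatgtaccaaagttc
GDPD1, chr17:59220261-59220510, plus strand: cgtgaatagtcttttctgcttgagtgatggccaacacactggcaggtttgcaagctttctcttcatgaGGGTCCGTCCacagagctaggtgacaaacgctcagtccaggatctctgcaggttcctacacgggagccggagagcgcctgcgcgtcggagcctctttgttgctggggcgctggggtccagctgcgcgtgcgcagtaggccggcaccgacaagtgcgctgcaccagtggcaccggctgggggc
The TMEM140 stretch holds 3 CpG pairs at a GC content of 39.6% and lies 5' of a gene of 18144 bases. The GDPD1 stretch holds 17 CpG pairs at 62.0%. The sequences had no searched motif in common. The interferon-stimulated response element was added after the sequences had been seen, and 3.02% of all 35116 promoters of the same length hold it. The NF-kB pattern is found in 54.4% of them.

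Because of that motif, 20 symbols of interferon-stimulated genes were read as well, a list added after the data were seen. Of these, 18 had a probe set, 10 were measured and 8, among them IFIT1, IFIT3, IFI44L and RSAD2, were never above background. The measured genes had medians of -0.086, 0.11 and 0.30 (log2), against 0.0071, 0.026 and 0.016 over all measured genes. They ranged from -0.49 to 0.52 at 8 h, -0.37 to 0.98 at 16 h and -0.24 to 1.01 at 24 h. OAS1, a sensor of double-stranded RNA, read 286, 279, 479 and 577 and was the 1 gene past 2-fold, at 24 h (log2 1.01). BST2, which tethers virus particles, read 1142, 1634, 2250.2 and 1453. The log2 difference of TMEM140 was above that of each of the 10 at 16 and 24 h. As TMEM140 was chosen for its size and the list was not, this describes the choice and is not a test.

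ODF4 and FBLL1 were step-like. ODF4, of the sperm tail, read 97.5, 203, 202 and 201 through 1552409_a_at. The treated arrays were almost equal and all lay above the control. The control was within background, so by this probe set the gene was at least 1.74-fold higher at 8 h and at least 1.73-fold at 24 h. The measured log2 differences were 1.06, 1.05 and 1.05. The second probe set, 1552408_at, read 42.1, 27.3, 44.5 and 39.0, under the floor of 48.4 used for log values on all 4 arrays.

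FBLL1, the fibrillarin relative, read 91.8, 203, 215 and 231 through 244071_at. As in ODF4, the control lay within background and the treated arrays above it. By this probe set FBLL1 was at least 1.75-fold, 1.85-fold and 1.99-fold higher at 8, 16 and 24 h (measured log2 1.15, 1.23 and 1.33). The probe set 236318_x_at, whose suffix marks probes that can bind other transcripts, read 88.1, 89.4, 77.9 and 87.3, within background and without a difference of that size. The annotation gave no sequence record for 244071_at, as for 241436_at of SCNN1G and 214829_at of AASS, so which stretch of each gene these probe sets read was not established here.

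None of the measured relatives of ODF4 or FBLL1 passed 2-fold. Of 12 sperm tail genes with a probe set, 8 were never above background, among them ODF1, AKAP3 and ROPN1, and the 5 measured besides ODF4 had medians of -0.15, 0.032 and 0.23 (log2). ODF2, which is also a centrosome protein of dividing cells, read 508, 477, 469 and 420.2. Of the 10 male germ cell markers, PRM1, PRM2, TNP1, TNP2, ODF1, DDX4, DAZL and AKAP4 were never above background, SYCP3, a protein of meiotic chromosomes, was above it on all arrays (3764, 3239, 2160.1 and 2700.2), and LDHC, a sperm enzyme, read 148, 116, 89.4 and 88.8. Fibrillarin itself, FBL, read 8044, 8554, 8142 and 7998 (log2 0.089, 0.018 and -0.0082), and its partners NOP58 and SNU13 stood at -0.22 and -0.46 at 24 h.

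COL24A1, ODF4 and FBLL1 all started at levels where array values are least certain. Among 5537 probe sets with 1 gene and a control intensity of 80 to 120, 0.126% were at least 2-fold higher at 8 h, 0.144% at 16 h and 0.181% at 24 h. At all 3 times it was 5 probe sets, or 0.0903%, and these 3 genes are in that band. Of all measured genes, 5 were within background on the control array, above it on each treated array and, by measured values, at least 2-fold higher on each. Besides these 3 they were NCAM1, the adhesion molecule CD56, and AKR1C2, an aldo-keto reductase. By the probe sets used, FBLL1 and NCAM1 (91.8 and 77.4 on the control array) counted as measured only through the treated arrays.

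**Figure D2:**
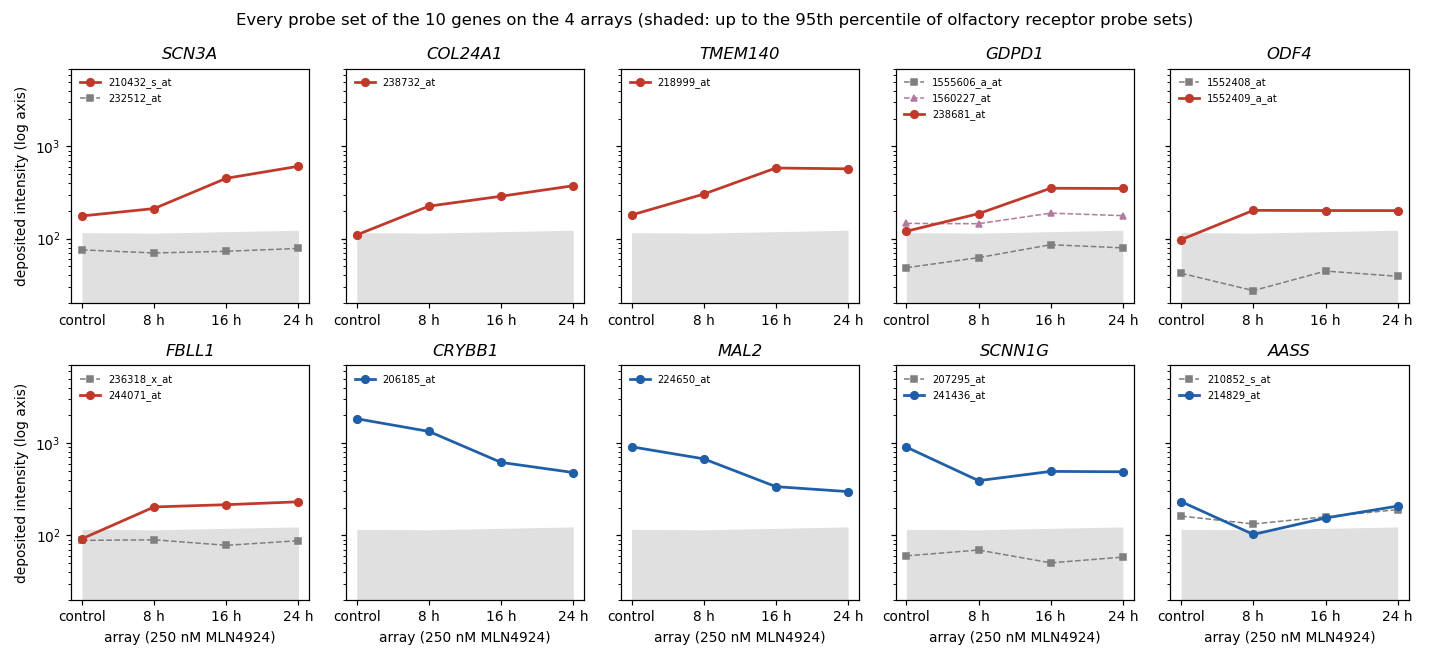
Deposited intensity (vertical log axis) of each of the 17 probe sets on the control, 8 h, 16 h and 24 h arrays, 1 panel per gene, 1 array per point, with no error bars because there were no replicates. The coloured solid line is the probe set used for the gene (red where higher, blue where lower), dashed lines are its other probe sets, and the grey area ends at the 95th percentile of olfactory receptor probe sets; the dashed lines of SCN3A, SCNN1G, ODF4 and FBLL1 stay inside it.

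CRYBB1, the lens crystallin, had the lowest difference of all 12446 measured genes at 24 h. Its single probe set read 1840.4, 1340.4, 618 and 480.1. It was above background on each array, and each array was below the one before it in time. It was 1.37-fold lower at 8 h, 2.98-fold at 16 h and 3.83-fold at 24 h (log2 -0.46, -1.57 and -1.94).

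The promoter of CRYBB1 is shown because this gene had the most negative difference and a strong level before treatment. Capitals mark a TATA box (TATAAA), 31 to 26 bases before the start, and a match to the core of the antioxidant response element (TGACNNNGC, here on the other strand).
CRYBB1, chr22:26618028-26618277, minus strand: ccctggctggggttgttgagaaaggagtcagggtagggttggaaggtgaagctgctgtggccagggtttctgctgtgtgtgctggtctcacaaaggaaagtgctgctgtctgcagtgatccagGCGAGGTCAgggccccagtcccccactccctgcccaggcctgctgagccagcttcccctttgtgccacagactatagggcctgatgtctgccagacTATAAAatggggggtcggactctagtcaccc
The stretch holds 2 CpG pairs, an observed over expected ratio of 0.092 against a median of 0.56 over all promoters. TATAAA is found in 10.7% of all promoters and TGACNNNGC in 10.9%.

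Most other crystallins were within background, and none of those measured passed 2-fold. All 14 had a probe set and 9 were never above background, among them CRYAA and the lens-specific gamma crystallins CRYGC and CRYGD. CRYBA4, which lies beside CRYBB1 in the genome, read 55.6, 72.8, 59.8 and 61.8. The 4 measured genes besides CRYBB1 had medians of 0.10, 0.19 and -0.019 (log2), with CRYAB, a small heat shock protein found in many tissues, at 140.3, 146, 172 and 136. Of the 9 lens markers with a probe set, 7 were never above background, the lens water channel MIP among them. BFSP2, a filament protein of lens fibres, was above it on all arrays, at 309, 281, 364 and 461. The part of these markers in the CRYBB1 difference was not tested.

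MAL2, the apical transport protein, had a course close to that of CRYBB1. Its single probe set read 913, 676, 337 and 298. It was above background throughout, with each array below the one before it. It was 1.35-fold, 2.71-fold and 3.06-fold lower (log2 -0.43, -1.44 and -1.62). The distance between the courses of MAL2 and CRYBB1 was 0.35, while the next closest among the 10 genes to CRYBB1 was SCNN1G at 1.47.

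No other measured gene of the MAL family passed 2-fold. Of 12 genes, 5 were never above background, including MAL itself, a T cell and myelin protein, and 6 besides MAL2 were measured, with medians of 0.17, 0.23 and -0.049 (log2). CMTM1 was 0.54 higher at 16 h, the largest size in the list after MAL2. CMTM6, which stabilises PD-L1 at the cell surface, read 1783, 1474, 1742 and 1718, and CMTM7 stood at -0.41 at 24 h. Of 10 epithelium markers, CDH1, CLDN7, EPCAM, KRT14, KRT19 and KRT5 were never above background. CLDN4, a tight junction protein, and KRT18, a keratin, were above it on all arrays, at 207, 173, 179 and 194 and at 168, 179, 165 and 165. The summed intensity of the 10 markers was 956, 905, 833 and 885. ESRP1, a splicing regulator of epithelia in that list, read 117, 92.7, 84.2 and 60.2, with only the control above background. The part of these markers in the MAL2 difference was not tested.

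SCNN1G, the gamma subunit of the epithelial sodium channel, was lower from the first time on. The probe set 241436_at read 906, 391.9, 494 and 489. The treated arrays lay together below the control, with the 8 h array the lowest. It was 2.31-fold lower at 8 h, 1.83-fold at 16 h and 1.85-fold at 24 h (log2 -1.21, -0.88 and -0.89). The other probe set of SCNN1G, 207295_at, which the annotation ties to a RefSeq messenger RNA of the gene, read 59.9, 69.3, 50.3 and 58.0 and was within background on each array. The probe sets annotated to SCNN1G therefore disagree on whether the gene was detected at all.

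The other subunits of the channel were within 2-fold of the control. SCNN1B, the beta subunit, encoded 61.3 kb away on chromosome 16, read 1140.0, 1203, 1177 and 1285 in its single probe set (log2 0.078, 0.046 and 0.17). SCNN1A, the alpha subunit, read 165, 181, 191 and 207, and SCNN1D was within background. SGK1, a kinase that keeps the channel at the cell surface, read 439, 285, 372 and 354, so it was also lowest at 8 h (log2 -0.62), and NEDD4L, the ubiquitin ligase that removes the channel, read 214, 232, 213 and 178. Of the 7 measured genes of the list besides SCNN1G, none passed 2-fold, and the medians were 0.12, 0.046 and 0.0054.

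AASS, of lysine breakdown, was low at 8 h and came back. The probe set 214829_at read 232, 102, 154 and 208. Only the 8 h array lay within background, so by this probe set the value was at least 2.02-fold lower there, and the log2 differences were -1.18, -0.59 and -0.16. The second probe set, 210852_s_at, above background on all arrays, read 162, 133, 159 and 190.2 (log2 -0.28, -0.026 and 0.23). The 8 h array was the lowest in both probe sets, while at 24 h they had opposite signs.

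Among the 12 genes of lysine breakdown, 8 were measured, and at 8 h the 7 besides AASS had a median of -0.10 (log2). DHTKD1, a dehydrogenase of a later step, also dipped on the 8 h array alone. Its probe set 227094_at read 576, 367, 552 and 596 and its probe set 209916_at 338, 202, 363 and 386 (log2 -0.65 and -0.74 at 8 h). DLST, which works with DHTKD1, stood at -0.35 at 8 h and 0.14 at 16 h, and DLD, a subunit shared by several dehydrogenases, at 0.098, 0.24 and 0.32. None of the 7 passed 2-fold, and AADAT, ALDH7A1, PIPOX and SLC25A21 were never above background.

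The promoter of AASS is shown for the match TGACGTAGC to the core of the antioxidant response element, 141 to 133 bases before the start. The other capitals are a match to the NF-kB pattern.
AASS, chr7:122144250-122144499, minus strand: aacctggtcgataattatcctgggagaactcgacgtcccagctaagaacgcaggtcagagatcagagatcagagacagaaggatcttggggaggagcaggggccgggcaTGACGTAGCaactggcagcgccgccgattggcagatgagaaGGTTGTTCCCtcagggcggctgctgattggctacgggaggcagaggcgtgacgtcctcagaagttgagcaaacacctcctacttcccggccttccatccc
The stretch holds 14 CpG pairs and a GC content of 58.0%, the median of all promoters.

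**Figure D3:**
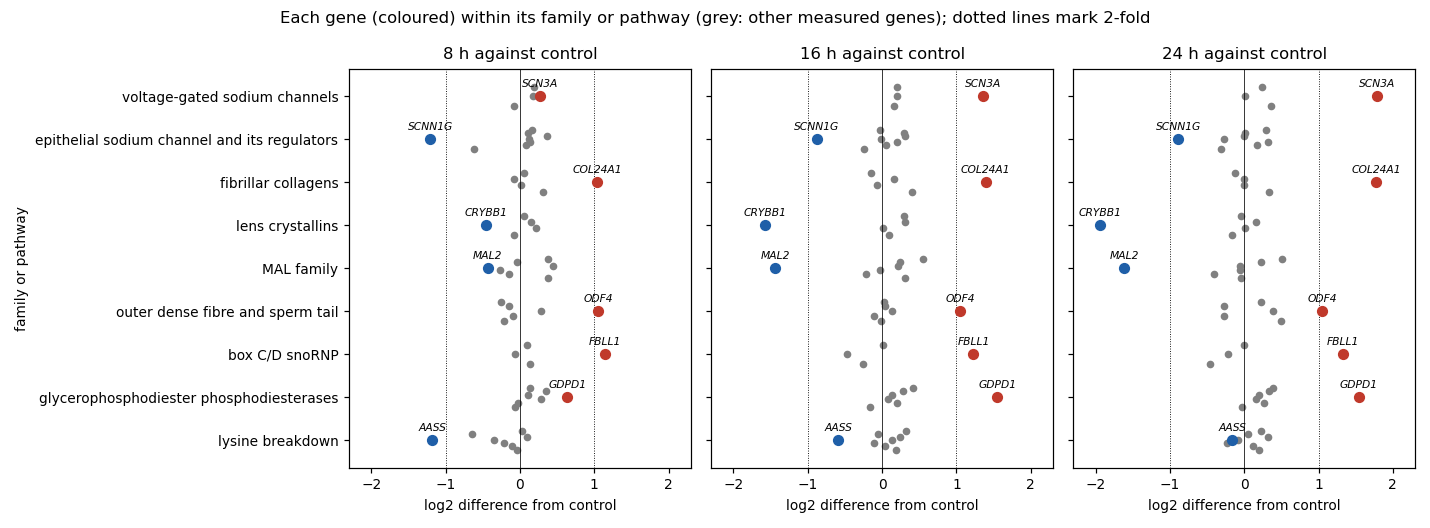
Log2 difference from the control (horizontal axis) at 8, 16 and 24 h for the measured genes of the 9 family and pathway lists (rows), 1 array each. Coloured points are the genes described here and grey points the other 45 measured genes, none of which passed the dotted lines at 2-fold; the one with the largest size was DHTKD1 at 8 h, at -0.65.

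Across the 9 lists, 45 measured relatives were set beside the genes above (TMEM140 had no list). None of the 45 passed 2-fold at any time. As the 10 genes were chosen for their size and the lists were not, this describes the choice and is not a test of a difference.

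Neighbours on the chromosome were read to see whether a stretch of DNA differed as a whole. Of 20 nearest measured genes, 1 on either side of each of the 10, none passed 2-fold at 8 h, 1 did at 16 h and 1 at 24 h. Of all measured genes, 0.129%, 0.386% and 0.514% were at least 2-fold higher at 8, 16 and 24 h, and 0.121%, 0.289% and 0.193% at least 2-fold lower. YPEL2, 55.7 kb from GDPD1 on chromosome 17, was the one at 16 h, and read 135, 180, 283 and 264 (log2 0.42, 1.07 and 0.97), a course like that of GDPD1 itself. On the other side SMG8, a factor of messenger RNA decay 5.28 kb away, read 642, 601, 623 and 585. MIAT, a long noncoding RNA 28.4 kb from CRYBB1 on chromosome 22, was the one at 24 h and was higher where CRYBB1 was lower. It read 1266, 2063, 2432 and 2537 (log2 0.70, 0.94 and 1.003). TPST2, on the other side of CRYBB1, stood at 0.16, 0.39 and 0.43, and COBLL1, beside SCN3A, at -0.15, -0.72 and -0.36. CYREN, a DNA repair regulator whose span overlaps that of TMEM140, read 724, 639, 674 and 640.5 (log2 -0.18, -0.10 and -0.18). These differences were near or within the spread between probe sets of the same gene (0.16, 0.19 and 0.18).

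**Figure D4:**
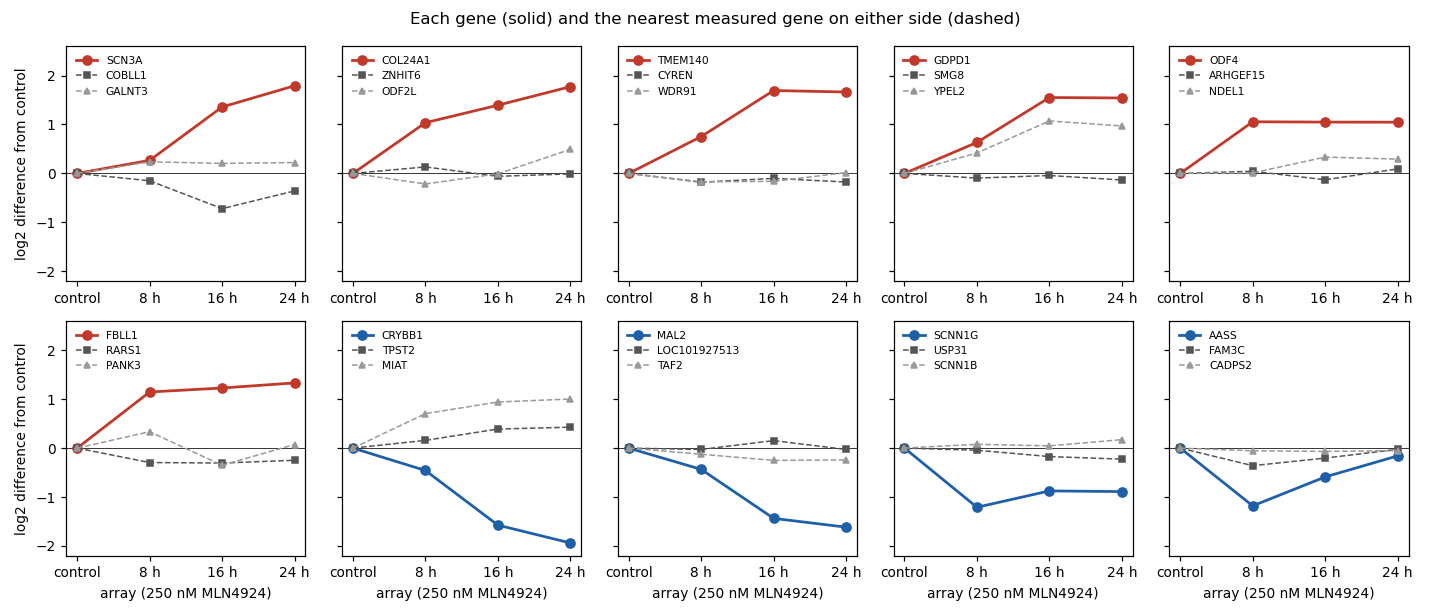
Log2 difference from the control (vertical axis) on the control, 8 h, 16 h and 24 h arrays for each of the 10 genes (solid line) and the nearest measured gene on either side (dashed lines), 1 panel per gene and 1 array per point. YPEL2 is at 1.07 beside GDPD1 at 16 h, and MIAT lies above 0 where CRYBB1 lies below it.

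The genes outside the 10 whose course was most like that of each of the 10 were found by the distance over the 3 log2 differences, with 1 array per time. The 10 genes were left out of this search, so each order below is among other genes only. FZD7, a Wnt receptor, was nearest to TMEM140 (0.067) and to GDPD1 (0.19), and read 132, 214, 419 and 422. CXCR3, a chemokine receptor of lymphocytes (659, 1005, 1755 and 2099), was among the nearest 3 of SCN3A, COL24A1, TMEM140 and GDPD1. NT5E, the ectoenzyme CD73, was nearest to SCN3A (0.28), and AKR1C1 was among the 3 nearest outside the 10 to TMEM140 and GDPD1. TRAT1, a T cell receptor adaptor, was nearest to FBLL1 (0.13) and COL24A1 (0.41), and read 594, 1352, 1357 and 1628. TMEM255A was nearest to ODF4 (0.13), at 1689, 3238, 3372 and 3528.

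For the lower genes, CDCA7, a gene of the cell cycle, was the nearest gene outside the 10 to both CRYBB1 (0.40) and MAL2 (0.41), which were closer to each other (0.35). It read 887, 523, 280.4 and 273, and its second probe set, at 163, 114, 81.1 and 77.8, was above background on the control array alone. CENPK, of the kinetochore, was the second nearest outside the 10 to both, and read 1004, 822, 426 and 438. GRHL3, a transcription factor of epithelia, was nearest to SCNN1G (0.25), at 412, 204, 249 and 228. TRPM8, the cold-sensing channel, was nearest to AASS (0.21), and read 454, 209.0, 324 and 458. The arrays are the same in each of these comparisons, and a distance over 3 values is a description of likeness only.

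Promoters of 6 of the 10 genes were read from the RefSeq table (COL24A1 with 2), and any entry on chromosome 8, where MAL2 lies, was left out. The motifs searched on both strands in the 250 bases before the start were the antioxidant core TGACNNNGC, the E2F site as TTTCGCGC or as the variant TTTGGCGC, the hypoxia response element ACGTG, the AP-1 site TGANTCA, the NF-kB pattern, the TATA box, the E-box CACGTG of MYC, which contains the hypoxia element, and the added interferon element. FBLL1 had a match to the NF-kB pattern and neither COL24A1 promoter had any match. None of the 7 promoters held either E2F form, the hypoxia element, the AP-1 site or the E-box in this window, and these occur in 0.439%, 0.55%, 18.5%, 6.57% and 6.34% of all promoters. The ratio of observed to expected CpG was above 0.6 in 71.4% of the 7 and in 47.5% of all promoters, with CRYBB1 (0.092) and TMEM140 (0.31) the low ones. The 10 genes lay on 8 chromosomes, with AASS (122073549 to 122144249) and TMEM140 (135148072 to 135166215) on chromosome 7 and GDPD1 (59220511 to 59275970) and ODF4 (8339840 to 8346046) on chromosome 17 of GRCh38.p14. SCN3A spans 165087526 to 165204050 on chromosome 2, COL24A1 85729233 to 86156984 on chromosome 1, and FBLL1 168529305 to 168530634 on chromosome 5. SCNN1G spans 23182745 to 23216883 on chromosome 16 and CRYBB1 26599278 to 26618027 on chromosome 22. The spans of the 10 genes ran from 1330 bases for FBLL1 to 427752 bases for COL24A1, with a median of 35725 against 28133 over 12429 measured genes.

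All 10 plasma cell markers were above background on all 4 arrays, as the label of the line implies, and none passed 2-fold. SDC1, the surface protein CD138, read 3087, 2821, 2939 and 2785, XBP1, of the secretory program, 9978, 8787, 9848 and 10030.3, and JCHAIN, the joining chain of antibodies, 22314, 20794, 21011 and 20178. CD38, a surface enzyme of plasma cells, was less bright, at 352, 314, 412 and 432. The medians of the 10 were -0.17, -0.0079 and 0.044 (log2) at 8, 16 and 24 h, and the summed intensity lay between 66025 and 73584.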

How the data were processed

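The assay was a 1-colour Affymetrix array of total RNA, per the labels' protocols. The values deposited by the authors were intensity values on a linear scale, 1 per probe set. How probes were summarised and normalized is not given in the sources used here. The array medians were 92.2, 95.1, 94.3 and 95.4, and no normalization was added. Groups came from the sample labels.

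Of 54675 probe sets, 41097 were annotated to exactly 1 gene by GEO's platform annotation. Of these, 41043 matched RefSeq (GRCh38.p14) by Entrez identifier. Before log2, anything under the 25th percentile (48.4) was set to it. Each gene took the values of its brightest probe set by mean, and was measured where that mean exceeded 93.9. Folds compare 1 array with another, and 2-fold was the limit for counts. Bounds ("at least") set the dimmer side to background. Promoters were read from RefSeq's table. Promoters of SCN3A, SCNN1G, MAL2 and ODF4 were not used.

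The genes and lists were chosen with earlier results of these data known. The interferon list and its motif were added after the values and sequences had been seen. Named genes were all 10, the 3 nearest in course, up to 4 per family list, the neighbours, and markers above background; other markers are named from their status. Counting and distance steps were tested on simulated data. Analyses used Python 3.11.15, pandas 2.3.3, numpy 2.4.6 and matplotlib 3.10.9. The number of arrays, 1 per group, limits the precision, as do signals near background and the choice of probe set.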

Additional observations from a re-analysis of the deposited data

Results flagged for a closer look

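Several genes had opposite signs against the control at 2 times, each by more than the spread between probe sets of the same gene. With 1 array per time the differences between times were not tested. The second AASS probe set, 210852_s_at, stood at -0.285 (log2) at 8 h and 0.234 at 24 h. SYT1 stood at -0.377 at 8 h and 0.675 at 24 h, and ODF2L, the neighbour of COL24A1 that is also in the sperm tail list, at -0.216 and 0.491. The probe set used for ODF2L was within background on the control, 8 h and 16 h arrays. Its sign at 8 h therefore compares values within background. AKAP4 stood at -0.254 and 0.228, within background on each array. CD38 stood at -0.164 at 8 h and 0.295 at 24 h. IRF7 stood at -0.334 and 0.291 and ISG15 at -0.493 and 0.3 at the same times. PANK3, the neighbour of FBLL1, stood at 0.336 at 8 h and -0.351 at 16 h.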

How the results depend on the processing

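Alternative settings were applied to the 2-fold counts and to the log2 values of the 10 genes, their relatives and their neighbours, and 0 called values took the opposite sign. Of 249 values of the 10 genes, 222 moved by less than the spread between probe sets of the same gene. The 27 that moved further did so with the median over all probe sets of a gene (15) or with log2(value + 32) (12). Many of the 222 could not move, so their number is no measure of robustness. No value of the probe sets used was at the floor, so a lower floor or none changed nothing. The filters only keep or drop a gene.

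With the median over probe sets, 1 of the 10 genes was at least 2-fold higher at 8 h, 2 at 16 h and 2 at 24 h, and 0 were lower at 8 h. SCN3A then stood at 0.92 at 24 h, SCNN1G at -0.56 at 16 h, AASS at -0.73 at 8 h, FBLL1 at 0.66 at 24 h, and ODF4 did not count as measured. AASS at 24 h, -0.16 with the brightest probe set, was then at 0.037. Over all measured genes this setting gave 9 lower at 8 h, 30 higher and 22 lower at 16 h, and 37 higher at 24 h, against 15, 48, 36 and 64. With log2(value + 32), which shrinks low values by construction, 0 of the 10 genes were higher and 1 lower at 8 h, and 7 of all genes were lower. With a filter at the 75th percentile, which leaves fewer genes, 0 were higher and 1 lower at 8 h, 2 higher at 16 h and 2 at 24 h, with 10 of all genes higher and 9 lower at 8 h. Without probe sets named _x_at or _s_at, SCN3A had no measured probe set and 14 of all genes were lower at 24 h against 24; the cause was not tested. Both alternatives for background left the counts of genes above it within 1.5 times.

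No paired analysis was possible because each group had 1 array. No array was left out, since none has a replicate. Signal close to background limits COL24A1, ODF4, FBLL1 and the GDPD1 control value.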
